A study of Mus musculus with 13 samples.

Results

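Adult hemoglobin is built from alpha chains, encoded in the mouse by Hba-a1 and Hba-a2, and beta chains, encoded by Hbb-bs and Hbb-bt. These 4 genes were examined in mouse brain RNA together with 3 genes that red cells depend on. Alas2 encodes the erythroid form of the first enzyme of heme synthesis, Slc4a1 the anion exchanger band 3 of the red cell membrane, and Bpgm the mutase that makes bisphosphoglycerate, the small molecule that lowers the affinity of hemoglobin for oxygen. All 7 were taken by symbol from the 55416 genes of the deposited count table. The libraries came from whole brain tissue of mice labelled male and fell into 4 groups. Slco1c1-iCreERT2; Pdcd10fl/fl mice, which lose Pdcd10 in brain endothelium (KO), were kept in hypoxia at 12% O2 for 7 days (n = 4) or in normoxia at 21% O2 (n = 3). Pdcd10fl/fl littermates (flox) were kept in hypoxia (n = 3) or in normoxia (n = 3). The design text describes a 50 µg dose of 4-hydroxytamoxifen given into the stomach on postnatal day 1. It also says that some uninjected Cre carriers served as controls, and no source used here gives the age at tissue collection. The Slco1c1 promoter drives the Cre, which the design text describes as brain endothelial, so whole brain RNA also holds transcripts of cells that the Cre does not target. The labels name no animal per library.

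Red cells lose their nucleus late in their formation, but young red cells in the circulation, the reticulocytes, still carry globin RNA. Whole brain RNA holds transcripts of any blood in the tissue, and low levels of globin transcripts have also been described in neurons and glia. Pdcd10, also called Ccm3, is one of the genes whose loss causes cerebral cavernous malformations, which are clusters of dilated, thin-walled brain vessels prone to leak and bleed.

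Libraries held between 42090437 and 71216636 counts, and levels are given in CPM, counts scaled to a common library total. A limit of 3 counts for a gene with none came to between 0.0421 and 0.0713 CPM. This covers counting error only. The targeted gene itself did not pass as changed in whole brain (edgeR log2 fold change -0.092 in hypoxia and -0.016 in normoxia, adjusted p = 0.470 and 0.962). It averaged 16.4 ± 1.09 CPM in KO hypoxia (n = 4) and 17.4 ± 0.194 CPM in flox hypoxia (n = 3), and 16.9 ± 1.07 CPM in KO normoxia and 17.1 ± 0.799 CPM in flox normoxia (SD, n = 3 each). One library, KO hypoxia replicate 1, had the highest level of all 13 libraries for each of the 7 genes, and results that rest on it are given with and without it. Although all mice are labelled male, 4 of 13 libraries (KO hypoxia replicates 3 and 4, KO normoxia replicate 3 and flox normoxia replicate 3) held Xist and no Y-linked transcripts above 1 CPM. KO normoxia replicate 2 had 1.95 CPM of the choroid plexus transcript Ttr, the carrier of thyroid hormone made by that tissue, against 277 and 297 CPM in the other KO normoxia libraries. Brain markers were abundant in every library, and the neuronal gene Snap25, for example, averaged between 1927 and 2135 CPM over the 4 groups.

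Hemoglobin transcripts were more abundant in KO brains than in flox brains, in hypoxia and in normoxia. The levels of Hba-a1, Hba-a2, Hbb-bs and Hbb-bt, summed and scaled by TMM, came to 17193, 3433, 4118 and 3374 CPM in KO hypoxia, against 443, 473 and 663 CPM in flox hypoxia. In normoxia the sum was 1681, 963 and 1348 CPM in KO brains, against 138, 197 and 258 CPM in flox brains. Every KO library therefore lay above every flox library, whichever oxygen level either came from, and the sum varied 125-fold between the highest and the lowest library. As a share of all counts it ran between 0.0136% and 1.72%. In bulk tissue, more cells of a type and more RNA per cell cannot be told apart.

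The summed counts of the 4 genes rose in KO brains by 3.74 ± 0.53 on the log2 scale (SE) in hypoxia and by 2.75 ± 0.52 in normoxia, with adjusted p = 0.000306 and 0.00904 in edgeR's quasi-likelihood test with Benjamini-Hochberg adjustment. KO hypoxia replicate 1 held 5.01 times the median of the other 3 KO hypoxia libraries. Without it, KO hypoxia averaged 3642 ± 413 CPM (SD, n = 3) and flox hypoxia 527 ± 119 CPM, a 6.92-fold difference of means beside the 13.4-fold difference with all libraries. The normoxic difference of means was 6.73-fold. Without replicate 1 the fitted change in hypoxia was 2.79 ± 0.22, which is close in size to the normoxic one. The normoxic call was lost without flox normoxia replicate 1 (2.54, adjusted p = 0.0591).

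**Figure D1:**
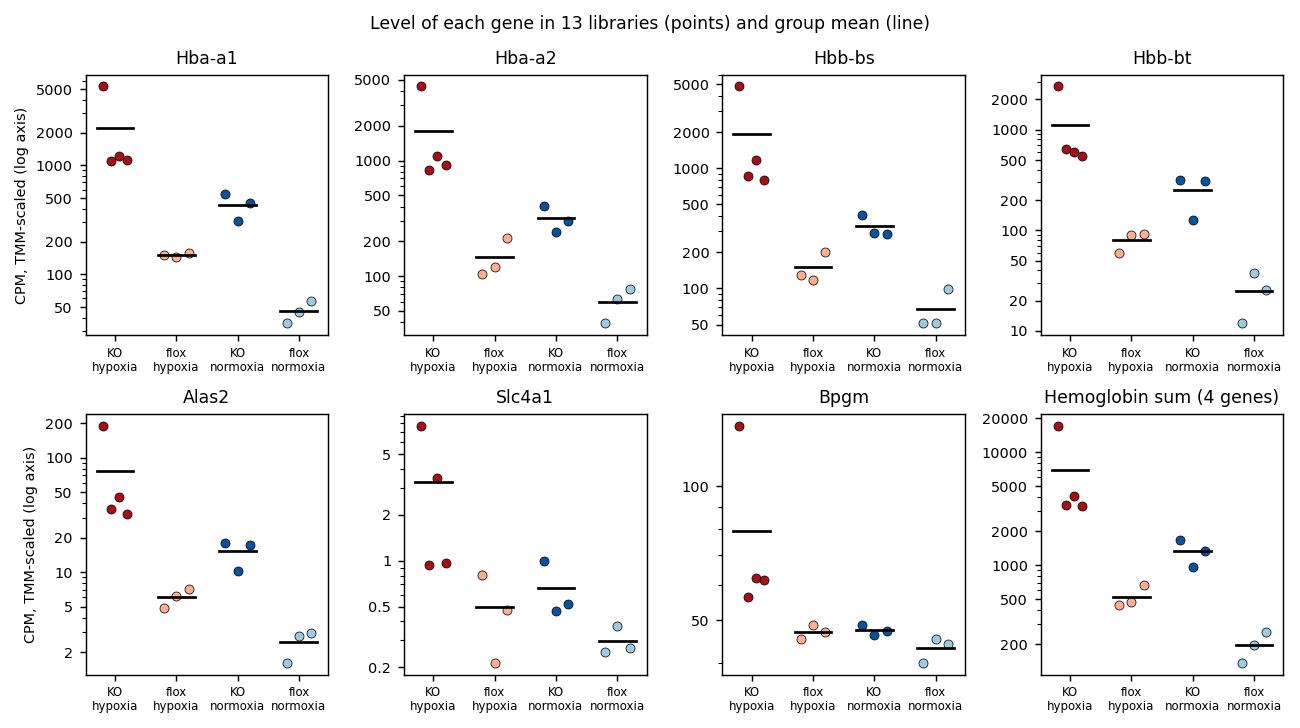
Level of each of the 7 genes and of the 4 hemoglobin genes summed, in TMM-scaled CPM on a log axis, by group. Points are libraries and lines are group means. KO hypoxia replicate 1 is the highest point in every panel, with 17193 CPM in the hemoglobin sum, and the 3 flox normoxia libraries, between 138 and 258 CPM, are the lowest there.

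Among the alpha chain genes, Hba-a1 had 5302, 1092, 1227 and 1109 CPM in KO hypoxia, against 149.6, 144 and 155 CPM in flox hypoxia. In normoxia it had 549, 305 and 449 CPM in KO brains, against 35.5, 44.8 and 57.2 CPM in flox brains. The flox hypoxia libraries differed little from each other, and no KO library overlapped with them. Hba-a1 rose in KO brains by 3.87 ± 0.51 in hypoxia and by 3.24 ± 0.51 in normoxia (log2 fold change ± SE, edgeR adjusted p = 0.00018 and 0.00271). Hba-a2 had 4385, 835, 1105 and 911 CPM in KO hypoxia, against 105, 121 and 214 CPM in flox hypoxia, and 405, 241 and 302 CPM in KO normoxia, against 39.0, 63.2 and 77.6 CPM in flox normoxia. Here too the genotypes did not overlap, although flox hypoxia replicate 3 came close to the lowest KO normoxia library. The edgeR log2 fold changes of Hba-a2 were 3.63 ± 0.54 in hypoxia (adjusted p = 0.000511) and 2.40 ± 0.53 in normoxia (adjusted p = 0.0255).

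Of the beta chain genes, Hbb-bs had 4812, 864, 1184 and 802 CPM in KO hypoxia, against 129, 118 and 202 CPM in flox hypoxia. Its normoxic levels were 411, 290.3 and 286 CPM in KO brains and 51.1, 51.4 and 97.9 CPM in flox brains. As with the alpha genes, both pairs of groups were apart. It rose by 3.68 ± 0.57 in hypoxia and by 2.30 ± 0.55 in normoxia (edgeR log2 fold change ± SE, adjusted p = 0.000612 and 0.0367). Hbb-bt had 2695, 643, 601 and 551 CPM in KO hypoxia, against 59.7, 89.9 and 91.9 CPM in flox hypoxia. In normoxia, 316, 126 and 311 CPM were measured in KO brains and 11.9, 38.0 and 25.3 CPM in flox brains. KO normoxia replicate 2 was well below the rest of its group for Hbb-bt, and the genotypes still did not overlap. Its edgeR log2 fold change was 3.80 ± 0.59 in hypoxia (adjusted p = 0.000648) and 3.32 ± 0.60 in normoxia (adjusted p = 0.00654).

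The paralogs share much of their sequence, so the split of reads within a pair is uncertain, and no source used here says how the authors counted reads that match both. In GENCODE transcripts of GRCm38, 67.5% of the 50-base windows of Hba-a1-201 also occur in Hba-a2-201, and 65.8% of those of Hbb-bs-201 occur in Hbb-bt-201. No 50-base window of Hba-a1-201 occurs in Hbb-bs-201, so alpha and beta reads can be told apart.

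As background, the 250 bases before each annotated start are shown for 5 of the 7 genes. They come from RefSeq's annotation of GRCm38.p6, which is another build than the authors' GRCm39. Promoter entries matched 6 of 7 symbols, and Slc4a1 was the one without. The windows lie at chr11:32283422-32283671, plus strand for Hba-a1, chr7:103827929-103828178, minus strand for Hbb-bs, chr7:103813924-103814173, minus strand for Hbb-bt, chrX:150547167-150547416, plus strand for Alas2 and chr6:34476106-34476355, plus strand for Bpgm. Each is printed 5′ to 3′ on the gene's strand, and capitals mark GATAA (the core read by GATA factors), CACCC (read by Klf1 and related factors), CCAAT and TATAA on either strand.
Hba-a1: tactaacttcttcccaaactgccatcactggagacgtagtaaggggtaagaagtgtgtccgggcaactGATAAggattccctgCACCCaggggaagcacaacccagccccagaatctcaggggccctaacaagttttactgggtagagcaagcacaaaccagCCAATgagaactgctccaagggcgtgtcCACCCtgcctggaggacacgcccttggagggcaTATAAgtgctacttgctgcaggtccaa
Hbb-bs: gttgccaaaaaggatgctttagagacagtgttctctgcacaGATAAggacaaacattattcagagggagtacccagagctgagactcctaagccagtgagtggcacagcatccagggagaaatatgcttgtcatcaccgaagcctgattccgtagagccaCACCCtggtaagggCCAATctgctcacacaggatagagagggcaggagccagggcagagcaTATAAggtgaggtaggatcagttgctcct
Hbb-bt: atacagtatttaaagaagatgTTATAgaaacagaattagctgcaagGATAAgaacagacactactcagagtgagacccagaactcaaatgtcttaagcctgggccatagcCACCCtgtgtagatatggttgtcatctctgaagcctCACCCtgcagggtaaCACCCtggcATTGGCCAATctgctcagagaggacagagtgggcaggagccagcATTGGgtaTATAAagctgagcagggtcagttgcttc
Alas2: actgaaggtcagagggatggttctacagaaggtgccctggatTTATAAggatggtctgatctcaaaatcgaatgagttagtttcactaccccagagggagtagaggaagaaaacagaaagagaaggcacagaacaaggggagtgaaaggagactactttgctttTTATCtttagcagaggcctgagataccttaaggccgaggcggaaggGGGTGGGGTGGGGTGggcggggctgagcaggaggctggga
Bpgm: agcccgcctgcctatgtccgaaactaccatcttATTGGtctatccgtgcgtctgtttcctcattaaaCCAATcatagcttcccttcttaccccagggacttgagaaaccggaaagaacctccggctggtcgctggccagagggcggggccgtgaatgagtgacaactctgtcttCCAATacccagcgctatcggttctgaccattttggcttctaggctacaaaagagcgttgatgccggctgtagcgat
The Hba-a2 window shares a run of 247 bases with that of Hba-a1 and is not printed, while the longest run shared by the windows of Hbb-bs and Hbb-bt is 14 bases. All 4 hemoglobin windows hold each of the 4 motifs, which is true of 0.968% of the 32841 windows in the table. Singly, GATAA occurs in 22.6% of windows, CACCC in 52.0%, CCAAT in 33.9% and TATAA in 22.8%. In Hba-a1 GATAA starts at position -182 and TATAA at -27, counted from the base before the start, and in Hbb-bs they start at -209 and -29. The Alas2 window holds GATAA and 3 adjoining copies of CACCC on the opposite strand and TATAA on both strands, where the matches overlap, but no CCAAT. In Hbb-bt a CCAAT on each strand adjoin each other. The Bpgm window holds CCAAT only. A match describes these letters and shows no binding, and whether the motifs bear on the levels measured here was not tested.

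Alas2, the enzyme that commits erythroid cells to heme synthesis, had 190.4, 35.6, 45.0 and 32.2 CPM in KO hypoxia, against 4.82, 6.23 and 7.19 CPM in flox hypoxia. Its normoxic levels were 18.0, 10.3 and 17.3 CPM in KO brains and 1.61, 2.76 and 2.96 CPM in flox brains. It followed the hemoglobin genes library by library, and the genotypes did not overlap. It rose by 3.65 ± 0.57 in hypoxia and by 2.61 ± 0.62 in normoxia (edgeR log2 fold change ± SE, adjusted p = 0.000676 and 0.0364).

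Slc4a1, the band 3 protein that exchanges chloride and bicarbonate and anchors the membrane skeleton, was the scarcest of the 7. It had 7.72, 0.937, 3.48 and 0.963 CPM in KO hypoxia, against 0.810, 0.214 and 0.478 CPM in flox hypoxia. In normoxia it had 0.995, 0.470 and 0.523 CPM in KO brains and 0.251, 0.372 and 0.269 CPM in flox brains. The KO libraries were above the flox libraries within each oxygen level, but by little in replicates 2 and 4 of KO hypoxia. Slc4a1 rose in hypoxia by 2.70 ± 0.67 (edgeR, adjusted p = 0.0184), while its normoxic value was 1.13 ± 0.80 (adjusted p = 0.599). Under limma-trend on log2(RPKM + 1) the hypoxic call was lost (adjusted p = 0.149), as it was without flox hypoxia replicate 2 (0.101) or 3 (0.0702).

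Bpgm, which is transcribed in many tissues as well as in red cells, changed least. It had 137, 56.3, 62.3 and 61.5 CPM in KO hypoxia, against 45.4, 48.8 and 46.9 CPM in flox hypoxia, and 48.7, 46.4 and 47.4 CPM in KO normoxia, against 40.1, 45.3 and 44.1 CPM in flox normoxia. In normoxia the lowest KO library was barely above the highest flox library, whereas all 4 KO hypoxia libraries stood clear of flox hypoxia. It rose in hypoxia by 0.75 ± 0.22 on the log2 scale (edgeR, adjusted p = 0.0472), and its normoxic value was 0.14 ± 0.24 (adjusted p = 0.870). Without KO hypoxia replicate 1 the hypoxic change was 0.35 ± 0.06 (adjusted p = 0.000857). The call with all libraries was lost with DESeq2 (adjusted p = 0.0605), with limma-trend on log2(RPKM + 1) (0.0987), and when any 1 library of the other 3 groups was left out (0.0541 to 0.140).

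Counted together, all 7 genes passed the test as higher in KO in hypoxia, where 6.78% of the 22507 genes tested did so (5.25% without KO hypoxia replicate 1, where all 7 also passed). No member was called lower, beside 2.28% of genes tested in hypoxia and 0.369% in normoxia. In normoxia 5 of 7 passed, the exceptions being Slc4a1 and Bpgm, beside 1.96% of all genes. The normoxic count fell to 2 without flox normoxia replicate 1 or 2 or KO normoxia replicate 1 or 3, and to 3 without flox hypoxia replicate 1 or 2. Among libraries with Y-linked transcripts the count was 7 in hypoxia and 3 in normoxia. The shares of all genes passing in these smaller sets of libraries are not given here. The libraries of the genotypes did not overlap for 7 of 7 genes at either oxygen level, beside 11.5% of genes tested in hypoxia and 10.5% in normoxia. The median log2 fold change of the 7 was 3.65 in hypoxia and 2.40 in normoxia, beside -0.00919 and -0.00357 over all genes tested.

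**Figure D2:**
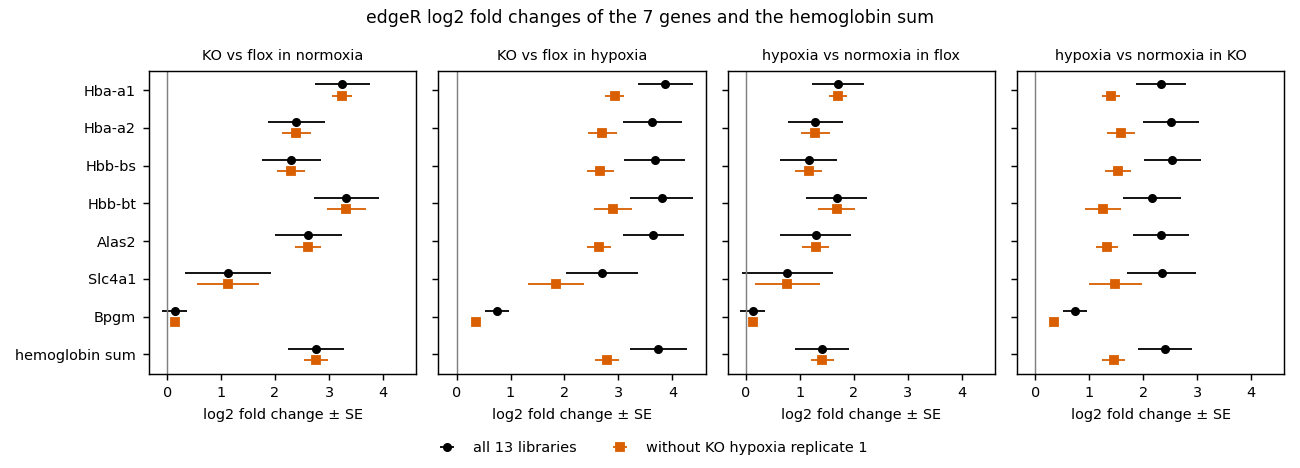
Log2 fold changes with SE from edgeR for the 7 genes and the hemoglobin sum in the 4 pairwise comparisons, with all 13 libraries (circles) and without KO hypoxia replicate 1 (squares). In KO versus flox in hypoxia the hemoglobin sum is at 3.74 with all libraries and at 2.79 without that library, while the normoxic comparison keeps its value of 2.75 with a smaller SE.

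Within KO brains, hemoglobin transcripts were also higher in hypoxia than in normoxia, 7030 ± 6784 CPM (SD, n = 4) against 1331 ± 360 CPM (n = 3). The change of the sum was 2.40 ± 0.49 on the log2 scale (edgeR, adjusted p = 0.0353) and 1.45 ± 0.21 without KO hypoxia replicate 1 (adjusted p = 0.00577). Hba-a1, Hba-a2, Hbb-bs and Alas2 rose, with log2 fold changes of 2.33 ± 0.47, 2.52 ± 0.51, 2.54 ± 0.53 and 2.33 ± 0.52 (edgeR adjusted p between 0.0333 and 0.0469). Hbb-bt had 2.16 ± 0.54 (adjusted p = 0.0717), Slc4a1 2.34 ± 0.64 (0.0970) and Bpgm 0.74 ± 0.22 (0.128). That makes 4 of 7 genes called, beside 0.622% of genes tested. Without KO hypoxia replicate 1 the count was 5 of 7, with Bpgm added at 0.34 ± 0.06 (edgeR, adjusted p = 0.0111), beside 0.395% of genes. The call for the sum was lost when only the KO libraries were fitted (edgeR, adjusted p = 0.119), with limma-trend on log2(RPKM + 1) (0.0834), and without any 1 of the KO normoxia libraries (0.0994 to 0.185) or flox hypoxia replicate 1 (0.0530) or 2 (0.0586). In each of these fits at most 1 of the 7 genes passed. The libraries did not overlap for 6 of 7 genes, Slc4a1 being the exception, beside 6.59% of genes tested.

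In flox brains the same comparison gave 527 ± 119 CPM in hypoxia and 198 ± 60.2 CPM in normoxia (SD, n = 3 each), a 2.66-fold difference of means. The log2 change of the sum was 1.41 ± 0.50 and did not pass (edgeR, adjusted p = 0.570). None of the 7 genes passed with all libraries, beside 0.0222% of genes tested (5 genes in all, with 1497 at an unadjusted p under 0.05). The log2 values were 1.71 for Hba-a1, 1.68 for Hbb-bt, 1.30 for Alas2, 1.29 for Hba-a2, 1.16 for Hbb-bs, 0.77 for Slc4a1 and 0.12 for Bpgm, with unadjusted p under 0.05 for the 4 hemoglobin genes. The hypoxia libraries were above the normoxia libraries for 6 of 7 genes, beside 6.56% of genes, and only Slc4a1 overlapped. KO hypoxia replicate 1 is in neither group compared here and enters through the shared estimate of spread, the filter and the scaling. Without it the sum kept its value with an SE of 0.21 and passed (edgeR, adjusted p = 0.0166). Hba-a1 then passed too (1.71 ± 0.17, edgeR adjusted p = 0.000615). DESeq2 called none of the 7 in flox. Without the filter on low counts, edgeR called the 4 hemoglobin genes. That fit called 104 of 38833 genes higher, beside 5 of 22507 in the main fit.

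The difference between the genotypes in their response to hypoxia was 0.99 ± 0.67 on the log2 scale for the hemoglobin sum (edgeR interaction, adjusted p = 0.775). None of the 7 genes passed, beside 0% of genes tested, with 1635 genes at an unadjusted p under 0.05. The gene values lay between 0.48 for Hbb-bt and 1.57 for Slc4a1. Without KO hypoxia replicate 1 the difference for the sum was 0.04 ± 0.30 (adjusted p = 0.986), and those of Hba-a1 and Hbb-bt turned to -0.31 and -0.43, while the other 5 genes stayed above 0.

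While the total varied 125-fold, the balance of alpha to beta transcripts was narrow. On the RPKM scale, which divides by gene length, the ratio of summed alpha to summed beta levels was 1.30, 1.27, 1.32 and 1.49 in KO hypoxia and 1.35, 1.27 and 1.30 in flox hypoxia. It was 1.30, 1.32 and 1.23 in KO normoxia and 1.22, 1.24 and 1.14 in flox normoxia. The highest and lowest of the 13 ratios differed 1.31-fold, and their coefficient of variation was 6.32%. KO hypoxia replicate 1, with 5.01 times the hemoglobin of its group, had a ratio equal to the median of all libraries, 1.30. The group means were 1.35 ± 0.1003 in KO hypoxia (1.36 ± 0.116 without replicate 1), 1.31 ± 0.0387 in flox hypoxia, 1.29 ± 0.0461 in KO normoxia and 1.20 ± 0.0513 for flox in normoxia (SD).

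No group difference in this ratio passed. The log2 difference between KO and flox was 0.04 in hypoxia (two-sided exact permutation p = 0.743) and 0.10 in normoxia (exact p = 0.2). Between hypoxia and normoxia it was 0.06 in KO (exact p = 0.457) and 0.12 in flox (exact p = 0.1). In flox the 3 hypoxia ratios were above the 3 normoxia ratios, and 0.1 is the smallest p that 3 against 3 libraries allow, while 4 against 3 allow 0.0571. Over the 20 comparisons of 5 ratios, none passed after Benjamini-Hochberg adjustment, and the smallest adjusted p was 0.545. As shares of counts, alpha reads made up 56.3%, 56.1%, 56.6% and 59.9% of hemoglobin counts in KO hypoxia and 57.4%, 56.0% and 55.7% in flox hypoxia. They made up 56.7%, 56.7% and 55.7% in KO normoxia, against 54.2%, 54.7% and 52.3% in flox normoxia. The Wilson 95% interval for KO hypoxia replicate 4 was 59.6% to 60.1%, which covers counting error only and not the spread between libraries.

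**Figure D3:**
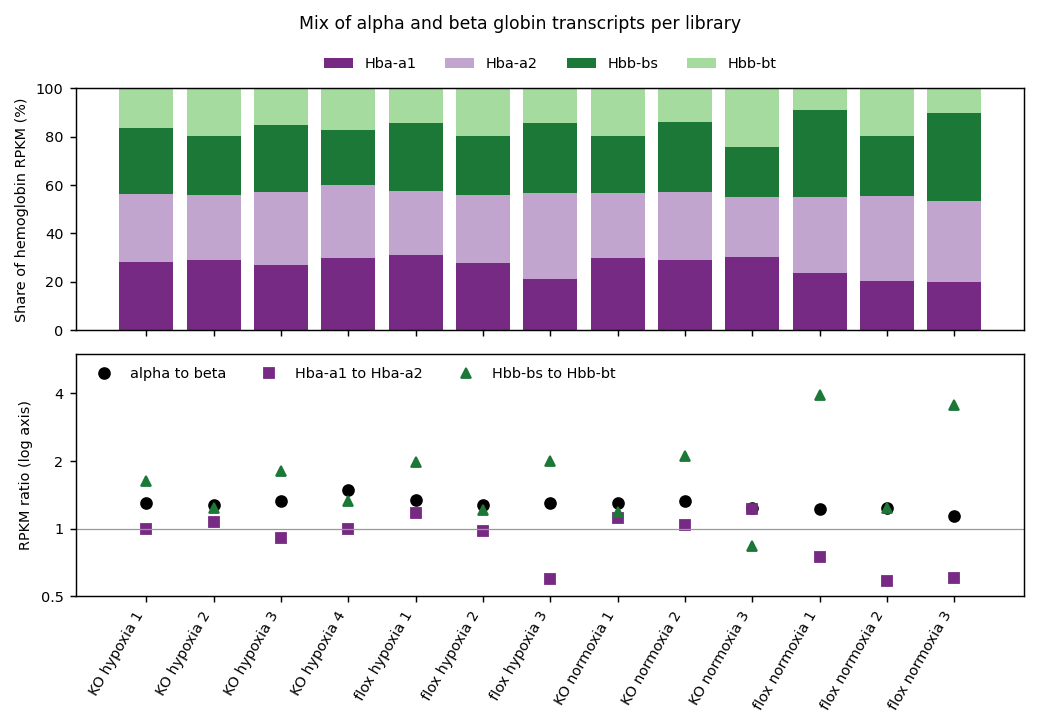
Share of each gene in the summed hemoglobin RPKM of a library (upper panel) and ratios of RPKM on a log axis (lower panel), with 1 bar or set of points per library. The alpha to beta ratio stays between 1.14 and 1.49, whereas the ratio of Hbb-bs to Hbb-bt runs between 0.842 and 3.93.

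Within each pair of paralogs the mix was less even. Hba-a1 relative to Hba-a2 was 0.993, 1.07, 0.913 and 0.999 in KO hypoxia and 1.17, 0.978 and 0.597 in flox hypoxia, and 1.11, 1.04 and 1.22 in KO normoxia, against 0.746, 0.582 and 0.605 in flox normoxia. All flox normoxia libraries and flox hypoxia replicate 3 held more Hba-a2, and the remaining libraries were near an even split. The log2 difference between KO and flox in normoxia was 0.81 (exact permutation p = 0.1, the smallest possible; adjusted p = 0.545). Hbb-bs relative to Hbb-bt was 1.63, 1.23, 1.80 and 1.33 in KO hypoxia and 1.98, 1.21 and 2.01 in flox hypoxia. In normoxia this ratio was 1.19, 2.10 and 0.842 in KO brains and 3.93, 1.24 and 3.55 in flox brains, a 4.67-fold range over all libraries. The groups overlapped in each of the 4 comparisons of the beta pair. These ratios rest on how reads shared by the paralogs were assigned, whose part in them was not tested.

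Set against hemoglobin, Alas2 kept pace. Per 1000 RPKM of summed hemoglobin it had 3.42, 3.20, 3.37 and 2.94 RPKM in KO hypoxia and 3.37, 4.05 and 3.30 in flox hypoxia, and 3.30, 3.30 and 3.95 in KO normoxia, against 3.62, 4.24 and 3.52 in flox normoxia. This is a 1.44-fold range with a coefficient of variation of 10.5%. Slc4a1 did not keep such a proportion, with between 0.0413 and 0.281 RPKM per 1000 RPKM of hemoglobin, a 6.79-fold range. In normoxia its proportion was lower in all KO libraries (0.0897, 0.0742 and 0.0588) than in all flox libraries (0.277, 0.281 and 0.157; exact permutation p = 0.1, adjusted p = 0.545).

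By length-normalised level, the order in KO hypoxia was Hba-a2 (2729 ± 2563 RPKM), Hba-a1 (2705 ± 2546), Hbb-bs (2508 ± 2509), Hbb-bt (1607 ± 1482), Alas2 (31.7 ± 31.7), Bpgm (22.3 ± 10.6) and Slc4a1 (0.674 ± 0.651; SD, n = 4). All genes were read in the same libraries and these SDs rest largely on replicate 1, so they do not judge the order. The order of the first 3 changed between KO hypoxia libraries, while Hbb-bt was below them in all 4. In flox normoxia the order was Hba-a2 (89.3 ± 29.0 RPKM), Hbb-bs (86.4 ± 34.4), Hba-a1 (56.1 ± 13.2), Hbb-bt (35.5 ± 18.7), Bpgm (12.0 ± 0.794), Alas2 (1.01 ± 0.301) and Slc4a1 (0.0605 ± 0.0136; SD, n = 3). Bpgm stood above Alas2 there. In KO hypoxia its place below Alas2 rests on replicate 1. Without that library Alas2 averaged 15.9 ± 2.77 RPKM and Bpgm 17.0 ± 0.969 RPKM (SD, n = 3). Of these libraries only replicate 3 held more Alas2 than Bpgm.

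Genes whose profile over the 13 libraries was most like that of the hemoglobin sum were ranked by the root mean square difference of centred log2 CPM. For the members this was 0.158 for Alas2, 0.160 for Hba-a2, 0.213 for Hba-a1, 0.233 for Hbb-bs, 0.384 for Hbb-bt, 1.01 for Slc4a1 and 1.58 for Bpgm, and the 4 hemoglobin genes are part of the sum. Over 14830 genes with a mean of at least 0.5 CPM the median was 1.94. The 8 nearest other genes were Serpina1b (0.676), Procr (0.804), H19 (0.819), Olfr1372-ps1 (0.827), Mall (0.830), Fgr (0.843), Isg20 (0.848) and Capg (0.860). Serpina1b, which belongs to a family of near-identical genes, had 2.04, 1.31, 1.33 and 0.582 CPM in KO hypoxia, against 0.0386, 0 and 0.0955 CPM in flox hypoxia. It met the limit of 0.5 CPM only through KO libraries, since flox means were 0.0447 CPM in hypoxia and 0.0168 CPM in normoxia. H19 and Fgr were likewise below 0.5 CPM in both flox groups. At such levels the 0.1 CPM added before taking logs bears on the distance, so the rank of these genes is uncertain. Procr, the endothelial receptor of protein C, had 8.21, 1.93, 2.38 and 3.34 CPM in KO hypoxia, against 0.463, 0.600 and 0.549 CPM in flox hypoxia. None of these 8 was as close as any hemoglobin gene or Alas2.

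Some other genes of the red cell program were also higher in KO hypoxia than in flox hypoxia. Of 15 tested genes of late red cell formation, 5 rose (Ube2l6, Isg20, Tent5c, Trim10 and Bnip3l), beside the 6.78% of all genes, and 5 passed without KO hypoxia replicate 1. The list's median log2 fold change was 0.05. Ube2l6, an enzyme that conjugates ISG15 and is abundant in maturing red cells, had 55.7, 14.0, 17.2 and 12.0 CPM in KO hypoxia, against 4.32, 3.81 and 4.49 CPM in flox hypoxia (log2 fold change 2.56 ± 0.44, edgeR adjusted p = 0.00147). Isg20, an exonuclease, had 11.5, 2.31, 3.53 and 2.40 CPM, against 0.810, 0.536 and 0.693 CPM (2.86 ± 0.52, adjusted p = 0.00217). Tent5c, a poly(A) polymerase, had 40.4, 8.16, 11.6 and 7.10 CPM, against 3.10, 2.36 and 3.87 CPM (2.44 ± 0.50, edgeR adjusted p = 0.00525). All 4 KO libraries were above all flox libraries for these genes, with replicate 1 far above the rest. Trim10 had a log2 fold change of 3.31 ± 0.76 (edgeR adjusted p = 0.0118), and Tfrc, the transferrin receptor, and Ube2o did not pass (-0.11 and -0.03). In normoxia none of the 15 passed with all libraries, beside 1.96% of all genes tested. Without KO hypoxia replicate 1, 3 passed: Tent5c (0.88), Isg20 (1.45) and Ube2l6 (1.16). The share of all genes passing in that fit is not given here, so this count does not set the list apart.

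**Figure D4:**
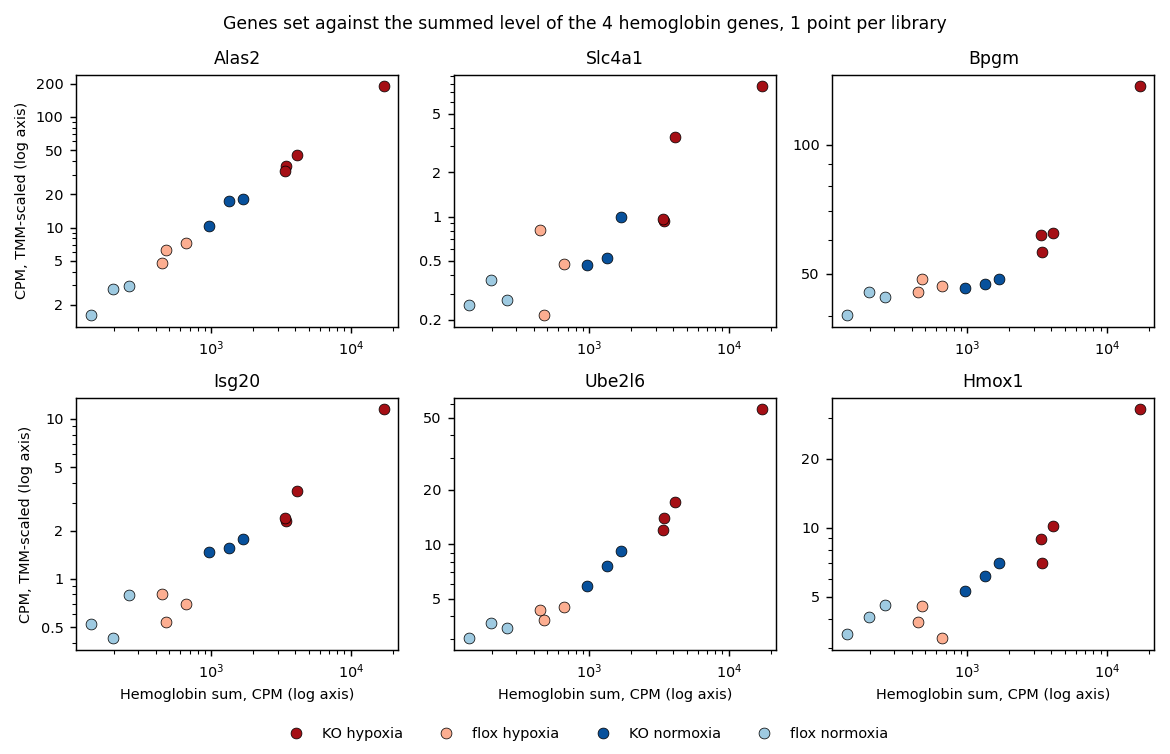
TMM-scaled CPM of 6 genes against the summed CPM of the 4 hemoglobin genes, both on log axes, 1 point per library coloured by group. Alas2 rises in step with hemoglobin, Bpgm is nearly level below KO hypoxia, and KO hypoxia replicate 1, at 17193 CPM of hemoglobin, is the top right point of each panel.

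Among the 11 tested red cell membrane genes, Add2 and Dmtn, which brain cells also express, were the most abundant on the list and did not pass (-0.15 and -0.14). Among 6 tested erythroid transcription factors Nfe2 alone rose in hypoxia (3.40 ± 0.92, edgeR adjusted p = 0.0291), beside 6.78% of all genes tested. Without replicate 1 none passed, beside 5.25% of all genes. With all libraries Bcl11a and Zfpm1 had values of -0.01 and -0.24. None of the 8 other heme synthesis genes passed at either oxygen level, beside 6.78% of all genes called higher in hypoxia and 1.96% in normoxia. In lists this short, counts of 0 or 1 do not set a list apart from all genes. Fech, which inserts iron into heme, had 91.6, 60.5, 63.7 and 62.6 CPM in KO hypoxia and 56.8, 58.0 and 57.1 CPM in flox hypoxia (0.28 ± 0.11, edgeR adjusted p = 0.114). Alas1, the form of the Alas2 enzyme used outside red cells, had a value of 0.12 (adjusted p = 0.281).

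The embryonic globin genes Hba-x, Hbb-bh0, Hbb-bh1 and Hbb-bh2 had 0 counts in all 13 libraries, and Hbb-y reached at most 0.544 CPM, in KO hypoxia replicate 1. Hbq1a and Hbq1b, theta globin genes, were the only 2 of this list tested, and neither passed (0.05 and 0.83 in hypoxia). None of the 3 globins used outside red cells passed, with cytoglobin (Cygb) averaging 59.3 ± 1.22 CPM in KO hypoxia and 58.0 ± 2.50 CPM in flox hypoxia, and neuroglobin (Ngb) 6.90 ± 0.825 and 7.02 ± 1.27 CPM. Of 6 tested genes of bisphosphoglycerate metabolism and lower glycolysis, Eno1 rose in KO at both oxygen levels, by 0.19 ± 0.05 in hypoxia (edgeR adjusted p = 0.0176) and by 0.20 ± 0.05 in normoxia (0.0475). Pkm (-0.01 and 0.06) and Pgk1 (0.11 and 0.09) did not pass. The counts in these 3 short lists stand beside 6.78% of all genes called higher in hypoxia and 1.96% in normoxia.

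Genes that clear free hemoglobin and heme rose in KO hypoxia in 4 of 7 cases, beside 6.78% of all genes tested. Hmox1, the heme oxygenase that breaks heme down, had 32.9, 7.04, 10.1 and 8.94 CPM in KO hypoxia, against 3.90, 4.58 and 3.30 CPM in flox hypoxia (1.91 ± 0.42, edgeR adjusted p = 0.00857). Haptoglobin (Hp), which binds free hemoglobin, had 2.30 ± 0.62 (adjusted p = 0.0296), its receptor Cd163 1.10 ± 0.31 (0.0342), and the biliverdin reductase Blvrb 0.43 ± 0.12 (0.0329). Hmox2 and Blvra did not pass (-0.07 and 0.05). Without KO hypoxia replicate 1 only Hmox1 passed, at 1.15 ± 0.16 (edgeR adjusted p = 0.000282), beside 5.25% of all genes. In normoxia none of the 7 passed, and Hmox1 had 7.03, 5.31 and 6.15 CPM in KO brains, against 3.46, 4.11 and 4.61 CPM in flox brains (0.59 ± 0.44, adjusted p = 0.618). No gene of these 8 lists was called lower in KO at either oxygen level.

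Markers of other cells moved with the hemoglobin genes in several groups, and their part in the results was not tested. All 15 endothelial markers passed as higher in KO in hypoxia and 14 in normoxia, beside 6.78% and 1.96% of all genes tested. Their summed level ran from 468 to 758 CPM in KO hypoxia, 249.8 to 274 CPM in flox hypoxia, 366 to 411 CPM in KO normoxia and 182 to 198 CPM in flox normoxia. The median log2 fold change of these markers was 1.03 in hypoxia and 1.04 in normoxia, below the 3.65 and 2.40 of the 7 genes. Of other blood cells, 1 of 4 neutrophil markers tested (S100a9), 2 of 7 platelet markers (Ppbp and Pf4) and 1 of 5 lymphocyte markers (Cd79b) rose in KO hypoxia, beside the same 6.78%. Without replicate 1 these counts were 0, 1 and 0, beside 5.25% of all genes tested. In normoxia none of the neutrophil and platelet markers passed, while 2 of 5 lymphocyte markers did, the B cell gene Cd79b among them. Summed neutrophil markers ran from 3.18 to 13.4 CPM in KO hypoxia, 1.48 to 2.9995 CPM in flox hypoxia, 2.32 to 2.87 CPM in KO normoxia and 2.69 to 3.16 CPM in flox normoxia. Summed platelet markers ran from 6.75 to 15.5, 4.73 to 5.79, 6.57 to 7.34 and 5.95 to 6.64 CPM in these groups, and summed lymphocyte markers from 2.69 to 3.54, 0.943 to 1.35, 1.94 to 2.03 and 0.602 to 0.808 CPM. KO hypoxia replicate 1 was the highest of the 13 libraries for endothelial, neutrophil, platelet and lymphocyte markers, and no marker of these lists was at 0 in all libraries. Klf1 and Gata1, factors of nucleated red cell precursors, were at most 0.323 and 0.0855 CPM in any library. No choroid plexus marker passed, and of 9 brain markers Gfap and Aqp4, both astrocyte genes, rose in KO hypoxia and Gfap in normoxia.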

How the data were processed

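RNA of mouse brain was sequenced in 13 libraries. The authors deposited raw counts per gene and RPKM values for the same 55416 genes, and the deposited RPKM values equal counts divided by the column total and 1 length per gene. The submitters' processing notes list HISAT2, edgeR and GRCm39 and give neither roles nor versions. Libraries were made with a stranded mRNA kit from RNA with an integrity number above 8.0, per the labels' protocols. No source used here gives the strand setting or the treatment of reads that match several genes.

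Counts were tested with edgeR 4.0.16 (R 4.3.3). Of all genes, 22507 passed filterByExpr, libraries were scaled by TMM, and 1 mean per group was fitted by quasi-likelihood to all 13 libraries. Benjamini-Hochberg adjustment was applied per contrast over all genes tested, and 0.05 was the threshold. The 4 hemoglobin genes were also summed to 1 row in their place. Standard errors were taken from the F statistic. Ratios were formed from RPKM and compared by exact permutation tests over libraries (SciPy 1.17.1). Alternatives used RLE scaling, no composition factor, no filter, 1 CPM in 3 libraries, DESeq2 1.42.0, limma 3.58.1 with pseudocounts of 1 and 0.1 RPKM on the log2 scale, a block for the replicate number, fewer groups, libraries with Y-linked transcripts, and each library left out. The count test was checked on simulated data.

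The genes, lists and tests were chosen with earlier results of these data known. The rule named all 7 genes, up to 4 genes of each list with the smallest p among those past the threshold in KO against flox, up to 2 of the highest mean CPM that did not pass, and 8 genes by likeness. The marker genes named were chosen after their values were seen. Ahsp was not analysed here, and some genes of the lists are not reported here. The labels name no batch and no animal per library, so the spread that p-values rest on is that between libraries, and may in part be technical. Within groups, no pair of libraries had a chi-square below 4.44 per degree of freedom, so no library was counted as a repeat.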

Additional observations from a re-analysis of the deposited data

Results flagged for a closer look

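KO hypoxia was the one group with 4 libraries, in which a library far from the others could be looked for, and 48 values per library were examined there. Chance flags about 1 in 20 such groups, and the 15 values found far from the rest all belong to replicate 1, so they are not independent of each other. They were 5302 CPM of Hba-a1, 4385 CPM of Hba-a2, 4812 CPM of Hbb-bs, 2695 CPM of Hbb-bt, 17193 CPM of the hemoglobin sum, 190.4 CPM of Alas2 and 137 CPM of Bpgm. Beyond these genes they were 91.6 CPM of Fech, 55.7 CPM of Ube2l6, 11.5 CPM of Isg20, 40.4 CPM of Tent5c, 32.9 CPM of Hmox1, 5.85 CPM of Cd163, 2.77 CPM of Fgr and 15.8 CPM of Capg. None of the 5 ratios was far from the rest in this library, and Slc4a1, at 7.72 CPM, was not either, because KO hypoxia replicate 3 lay between it and the other libraries.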

How the results depend on the processing

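The hemoglobin sum was higher in KO than in flox, and in hypoxia than in normoxia, in all 23 alternatives of each of the 4 pairwise comparisons. Counts of the 7 genes passing were less stable. The share of all genes passing also moves with the setting, and where it is not given a count describes that setting alone. In KO against flox in normoxia (5 of 7), 2 passed with limma-trend on log2(RPKM + 1), 3 among libraries with Y-linked transcripts, and 2 to 5 when a library was left out, with the sum between 2.54 and 2.99. In hypoxia against normoxia in KO (4 of 7), 7 passed with no filter, where 602 of 38833 genes were called higher, beside 140 of 22507 in the main fit. None of the 7 passed with limma-trend on either pseudocount or when only the libraries compared were fitted. The sum was then 2.07 with either pseudocount and 2.40 with only those libraries, none of which passed. Leaving out a library gave 0 to 6 genes and a sum between 1.45 and 2.64. In hypoxia against normoxia in flox (0 of 7), 4 passed with no filter (sum 1.40) and 1 with only the libraries compared (sum 1.41), and both sums passed. The fit with no filter called 104 of 38833 genes higher, beside 5 of 22507 in the main fit. Leaving out a library gave 0 to 1 genes and a sum between 1.21 and 1.65. For the interaction, leaving out a library gave -0.31 to 0.85 for Hba-a1 and -0.43 to 0.81 for Hbb-bt. The log2 difference in alpha to beta ratio turned to -0.024 (KO against flox in hypoxia) and -0.030 (hypoxia against normoxia in KO) among libraries with Y-linked transcripts, and to -0.13 in the second with Hba-a1 over Hbb-bs alone. It ran from -0.010 to 0.067 in the first when a library was left out. Counts in place of RPKM, chosen after seeing the data, kept its direction in all 4 comparisons. Without KO hypoxia replicate 1, also chosen then, the counts in KO against flox in hypoxia were 1 for membrane genes, 0 for erythroid transcription factors, 1 for clearance genes, 0 for neutrophil, 1 for platelet and 0 for lymphocyte markers. Over all genes tested the share called higher there was 5.25%. Genes of late red cell formation came to 2 in hypoxia against normoxia in KO, beside 0.395% of all genes tested. They came to 3 in KO against flox in normoxia, where the share of all genes is not given here. The cause of these shifts was not tested.

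Replicate numbers are shared between groups, and deviations of same-numbered libraries correlated between -0.04 and 0.14, not above 0.1 in every pair. The main fits therefore did not pair libraries by number. With so few libraries per group this cannot exclude that same-numbered libraries share a litter or batch. With the replicate block the hemoglobin sum was 3.76 and 2.65 in KO against flox in hypoxia and normoxia, and 2.49 in KO and 1.38 in flox for hypoxia against normoxia. The block changed the call of Slc4a1 alone, in hypoxia against normoxia in KO (2.37, edgeR adjusted p = 0.0256).

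With 3 or 4 libraries per group, exact tests of the ratios could not reach 0.05. Slc4a1 and the genes under 1 CPM rest on few counts, and how shared reads were split limits each paralog ratio.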
